A study of Mus musculus with 2 samples.

Results

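The Regnase and Roquin mRNA decay regulators comprise 8 of the 37451 genes in the deposited expression table, chosen by gene symbol. They are the Regnase genes *Zc3h12a*, *Zc3h12b*, *Zc3h12c* and *Zc3h12d*, the Roquin genes *Rc3h1* and *Rc3h2*, and the partner genes *Arid5a* and *N4bp1*. RNA was measured in 1 library of wild-type (WT) and 1 library of ΔM bone marrow-derived macrophages (BMDMs). BMDMs are primary macrophages grown from mouse bone marrow with CSF-1. Both genotypes are on the C57BL/6 background and came from littermates aged 7 to 9 weeks, and the ΔM mice were of the genotype TTP fl/fl LysMCre. In these mice a Cre recombinase made from the lysozyme M locus deletes the gene of tristetraprolin (TTP), *Zfp36*, in myeloid cells, so that any cell that escapes Cre keeps the gene. All cells received 100 μM 4-thiouridine for 16 h and then LPS at 10 ng/ml for 6 h, as the treatment protocol states, while the sample names carry the tag LPS7, which the labels do not explain. No untreated cells were measured, and the values therefore describe the stimulated state only.

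Like TTP, Regnases and Roquins act on the 3′ untranslated region (3′ UTR) of inflammatory mRNAs, but they read a folded stem-loop rather than a linear AU-rich element. Regnase-1, the product of *Zc3h12a*, is an endonuclease that cuts mRNAs while they are translated, with the helicase UPF1. Roquin-1 and Roquin-2 bind related stem-loops and recruit the CCR4-NOT deadenylase, and ARID5A protects some of the same mRNAs from decay. LPS induces Regnase-1 and at the same time triggers the destruction of its protein, and the Regnase-1 mRNA is itself a substrate of Regnase-1.

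The stem-loops that such proteins bind have a short stem and a loop of pyrimidine, purine and pyrimidine. Matches with a perfect stem of 5 base pairs and such a loop of 3 nt were found in the longest annotated 3′ UTR of 4 of the 7 members that have one (GENCODE M1, NCBIM37, that is, mm9). *Zc3h12a* had 3 matches in 856 nt, *Rc3h1* had 4 in 7181 nt, *Rc3h2* had 2 in 5331 nt and *Zc3h12c* had 1 in 3421 nt. *Zc3h12d*, *Arid5a* and *N4bp1* had 0, and *Zc3h12b* had no annotated 3′ UTR. The search misses stem-loops with a mismatch in the stem, a shorter stem or another loop. A count of 0 therefore does not show that a site is absent. A match was present in 19.3% of all 19928 annotated 3′ UTRs of protein-coding genes. Among 3′ UTRs within 20% of its own length, the share with a match was 15.1% for *Zc3h12a*, 44.0% for *Zc3h12c*, 59.5% for *Rc3h2* and 70.6% for *Rc3h1*. The 3 matches of *Zc3h12a* are shown because its mRNA is a known Regnase-1 substrate, with the stem and loop in capitals and the transcript strand written 5′ to 3′. All lie in exon 6 of 6, on the minus strand, at chr4:124796306-124796334, chr4:124796124-124796152 and chr4:124795900-124795928.
Zc3h12a, 197 nt after the stop codon: cccuguugAUACACAUUGUAUcucuguca
Zc3h12a, 379 nt after the stop codon: gcuaguuaGGCACCAUGUGCCugcucucu
Zc3h12a, 603 nt after the stop codon: ggcgagauUUAAAUAUUUUAAaugaaaaa

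The loops are CAU, CAU and UAU. The stem at 379 nt holds 4 G-C pairs, that at 197 nt holds 1 and that at 603 nt holds 0. An AU-rich pentamer, AUUUA, overlaps the start of the match at 603 nt.

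The Roquin genes have 2 stem-loops in common, letter for letter over 13 nt. The rarer of these is shown beside the constitutive decay element of *Tnf*, the textbook Roquin site, which the search found at chr17:35336523-35336551 on the minus strand. The copy of *Rc3h1* lies in exon 20 of 20 at chr1:162901784-162901812 on the plus strand. The copy of *Rc3h2* lies in exon 22 of 22 at chr2:37229322-37229350 on the minus strand, and the match of *Zc3h12c* in exon 6 of 6 at chr9:51921567-51921595 on the minus strand.
Rc3h1, 3864 nt after the stop codon: agccaauaACUUCUGUGAAGUugccuuuu
Rc3h2, 1578 nt after the stop codon: uuuaauuaACUUCUGUGAAGUuguuuacu
Zc3h12c, 1924 nt after the stop codon: caauaaucUGAACCAUGUUCAgcaaacuu
Tnf, 547 nt after the stop codon: cagacaugUUUUCUGUGAAAAcggagcug

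Both Roquin copies and the *Tnf* element have the loop UGU. The windows of *Rc3h1* and *Rc3h2* were equal at 20 of 29 positions. These include the 13 nt of the stem-loop, which are equal because the pair was picked for them. The shared 13 nt occurred in 5 of the 19928 3′ UTRs, a share of 0.0251%. The other 3 genes were *Adamts6*, *Kctd20* and *Pxdn*. The remaining matches of the Roquin genes were stems of A and U with 0 G-C pairs, and 2 of those in *Rc3h1* overlapped each other. Among them, AUAUAUAUUAUAU was also shared by *Rc3h1* (2002 nt after the stop codon) and *Rc3h2* (236 nt after it). It occurred, however, in 59 of the 19928 3′ UTRs (0.296%). The windows around it were equal at 16 of 29 positions, again with the 13 nt of the stem-loop included.

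TTP binds the AU-rich heptamer UAUUUAU, which contains the pentamer AUUUA. On the transcript strand the heptamer was found 3 times in *Rc3h2*, 2 times in *Rc3h1* and 2 times in *Zc3h12c*, and 0 times in *Zc3h12a*, *Zc3h12d*, *Arid5a* and *N4bp1*. It was present in 23.9% of all 3′ UTRs and in 63.8% of those within 20% of the length of *Rc3h2*. The 3 sites of *Rc3h2* are shown because this member differed most between the libraries, with the heptamer in capitals. They lie in exon 22 at chr2:37230276-37230304, chr2:37230018-37230046 and chr2:37228807-37228835.
Rc3h2, 627 nt after the stop codon: uccagcugcuuUAUUUAUcuuuuucauug
Rc3h2, 885 nt after the stop codon: ugcuuuguuaaUAUUUAUacacaggcuac
Rc3h2, 2096 nt after the stop codon: caaagacauuuUAUUUAUuuuacucugua

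The pentamer was most frequent in *Rc3h2*, with 25 copies or 4.69 per kb. *Zc3h12c* followed with 12 copies or 3.51 per kb, and *Zc3h12a* with 3.50 per kb, which rests on 3 copies in 856 nt. *Rc3h1* had 20 copies or 2.79 per kb. It was sparse in *Zc3h12d* at 0.859, *N4bp1* at 0.846 and *Arid5a* at 0.523 per kb. Over all 3′ UTRs there were 1.74 per kb, and 61.5% held at least 1 copy. The AU content of the 3′ UTR was 66.0% in *Rc3h2*, 64.0% in *Zc3h12c*, 62.8% in *Rc3h1* and 54.6% in *Zc3h12d*. It was 49.3% in *N4bp1*, 46.7% in *Arid5a* and 46.5% in *Zc3h12a*. The part of AU content in the pentamer counts was not tested. A match is a description of the letters and does not show binding, and the libraries do not tell which 3′ UTR of a gene was used.

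**Figure D1:**
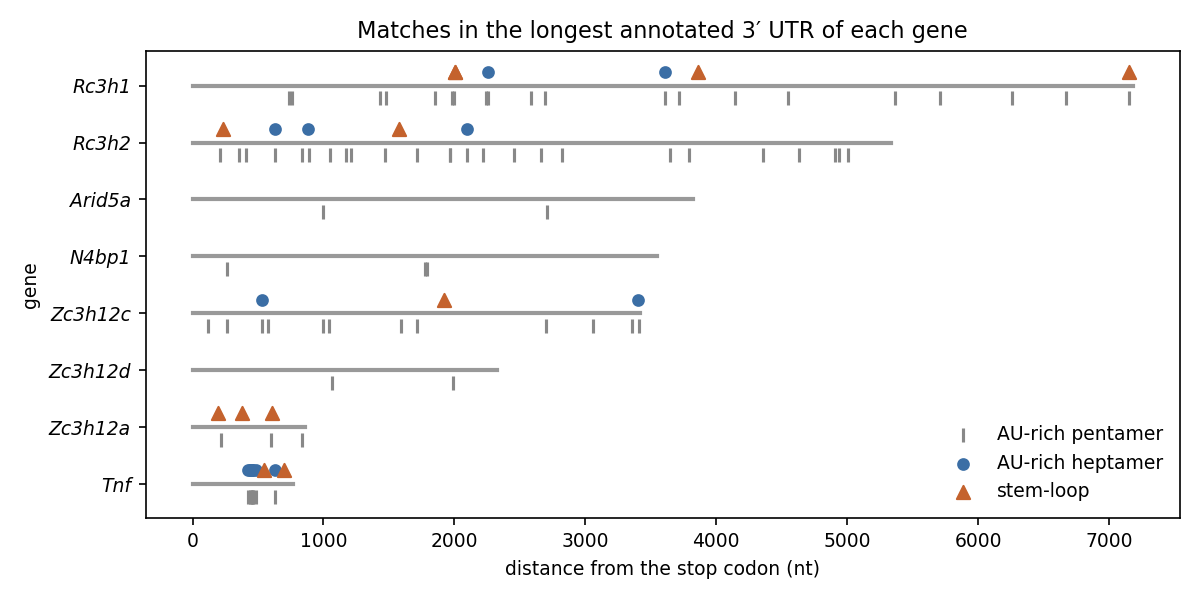
Matches along the longest annotated 3′ UTR (gray line) of the 7 members that have one and of *Tnf*, against the distance from the stop codon in nt. Triangles mark stem-loops, circles the AU-rich heptamer and ticks the pentamer. The short 3′ UTR of *Zc3h12a* carries 3 stem-loops and 0 heptamers, and that of *Tnf* carries 2 stem-loops and 8 heptamers.

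Expression was deposited as FPKM, that is, fragments scaled to exon length and to the number of mapped fragments. This allows levels of different genes to be set side by side. The gene values do not tell which transcripts were used, so shares and ratios between genes are approximate. From the steps between low values, the libraries were estimated to hold 37160000 fragments (WT) and 32860000 fragments (ΔM). The targeted gene *Zfp36* was at 65.26 FPKM in WT against 16.71 in ΔM, 3.91-fold lower. The 7 macrophage markers ranged from 5.45 to 2481 FPKM. Of these, *Lyz2*, the locus that drives Cre, was at least 1.5-fold lower in ΔM (2481 FPKM in WT against 1356 in ΔM), *Mrc1* was higher (5.45 against 11.56 FPKM) and 5 differed less, and their part in the differences of the members was not tested. For other cell types, 17 of 18 markers of T cells, B cells, neutrophils and stroma were at or below 0.41 FPKM in both libraries. The exception was *Lck* at 9.58 FPKM in WT against 10.78 in ΔM, while *Cd3e* and *Cd3g* were listed at 0. With 1 library per genotype there is no replicate, so no p-value is given, and intervals below are 95% Poisson intervals for counting error only. Differences between the mice, the cultures and the preparations of the libraries cannot be told apart from the genotype.

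Regnase-1 mRNA was the most abundant of the Regnase mRNAs by far and was lower in ΔM, whereas Regnase-4 mRNA was higher. Both differences were under 1.5-fold, and protein was not measured in these libraries. *Zc3h12a* (chromosome 4, 124795667 to 124805084, minus strand) was at 30.17 FPKM in WT (28.7 to 31.6) and 21.91 FPKM in ΔM (20.6 to 23.3). The intervals did not overlap. The ratio of ΔM to WT was 0.726 (0.672 to 0.784). On the log2 scale after adding 1 FPKM to each value, which understates the change of low genes, the log2 ratio was -0.44.

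*Zc3h12c* (chromosome 9, 51920090 to 51976216, minus strand) encodes Regnase-3, an endonuclease of the same family that is also made in macrophages. It was the lowest member detected, at 2.81 FPKM in WT (2.59 to 3.04) and 2.11 FPKM in ΔM (1.91 to 2.32). It was lower in ΔM, with a log2 ratio of -0.29 and a ratio of 0.751 (0.661 to 0.852). That interval of the ratio includes 1.5-fold lower. *Zc3h12d* (chromosome 10, 7552268 to 7590195, plus strand) encodes Regnase-4, best known from lymphocytes. Its level was 4.06 FPKM in WT (3.74 to 4.40) and 5.98 FPKM in ΔM (5.56 to 6.42), again without overlap of the intervals. The log2 ratio was 0.46, and the ratio of 1.47 had an interval of 1.32 to 1.64 that includes 1.5-fold.

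*Zc3h12b*, the gene of Regnase-2 (chromosome X, 92907017 to 93127831, plus strand), was listed at 0 in both libraries. A count of 0 allows up to 3 fragments, which correspond to 0.0401 FPKM in WT against 0.0454 in ΔM at its median transcript length of 2212 nt. These are upper limits, and lower levels of the transcript may be present.

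Within the Regnase family, *Zc3h12a* accounted for 81.5% of the summed FPKM in WT and 73.0% in ΔM. *Zc3h12d* accounted for 11.0% in WT and 19.9% in ΔM, and *Zc3h12c* for 7.59% and 7.03%. The sum of the Regnase genes was 37.04 FPKM in WT against 30 in ΔM. The ratio of *Zc3h12d* to *Zc3h12c* was 1.44 in WT and 2.83 in ΔM.

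Of the Roquin genes, *Rc3h2* was lower in ΔM by over 2-fold, whereas *Rc3h1* differed by less than its counting error. *Rc3h2* (chromosome 2, 37225589 to 37278423, minus strand) was at 8.54 FPKM in WT (8.15 to 8.95) and 3.76 FPKM in ΔM (3.48 to 4.05). The ratio was 0.440 (0.403 to 0.481) and the log2 ratio was -1.003. *Rc3h1* (chromosome 1, 162836549 to 162905109, plus strand), whose product Roquin-1 restrains cytokine and costimulator mRNAs, was at 3.93 FPKM in WT (3.59 to 4.30) and 4.16 FPKM in ΔM (3.78 to 4.56). These intervals overlapped, and the ratio of 1.06 had an interval of 0.928 to 1.21.

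The balance of the paralogs differed between the libraries. *Rc3h2* was at 2.17 times the level of *Rc3h1* in WT and at 0.904 times in ΔM, where the intervals of the paralogs overlapped. The sum of both Roquin genes was 12.47 FPKM in WT against 7.92 in ΔM. *Rc3h2* has 6 annotated transcripts of 513 to 8948 nt and *Rc3h1* has 3 of 663 to 11006 nt. Where the authors' gene value sums transcripts that are each scaled to their own length, a shift between long and short transcripts moves it, and this was not tested. The snoRNA gene *Snord90* lies in an intron of *Rc3h2* on the same strand and overlaps none of its annotated exons. It was at 214.77 FPKM in WT against 132.46 in ΔM, a ratio of 0.617, although a gene of 111 nt is shorter than the mean fragment of 202 nt and its FPKM is uncertain. Its part in the difference of *Rc3h2* was not tested.

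ARID5A and N4BP1 transcripts were close to level. *Arid5a* (chromosome 1, 36364578 to 36380874, plus strand), which encodes the RNA-binding protein that stabilizes *Il6* mRNA, was the most abundant member in both libraries. Its level was 53.74 FPKM in WT (52.0 to 55.5) and 51.70 FPKM in ΔM (49.9 to 53.5), with a log2 ratio of -0.05. *Arid5a* has 15 annotated transcripts of 400 to 5504 nt, and their part in its level was not tested. *N4bp1* (chromosome 8, 89365038 to 89409157, minus strand) encodes a Regnase-related RNase that restrains NF-κB-dependent cytokines. It was at 10.01 FPKM in WT (9.59 to 10.4) and 10.60 FPKM in ΔM (10.1 to 11.1), with a log2 ratio of 0.08. For both genes the intervals of the libraries overlapped, and the ratios were 0.962 (0.917 to 1.01) and 1.06 (0.996 to 1.13).

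*Arid5a* held 47.4% of the summed FPKM of all members in WT and 51.6% in ΔM. Since *Zc3h12a* was lower and *Arid5a* nearly level, the ratio of *Arid5a* to *Zc3h12a* was 1.78 in WT and 2.36 in ΔM. The sum over the members was 113.26 FPKM in WT against 100.22 in ΔM.

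**Figure D2:**
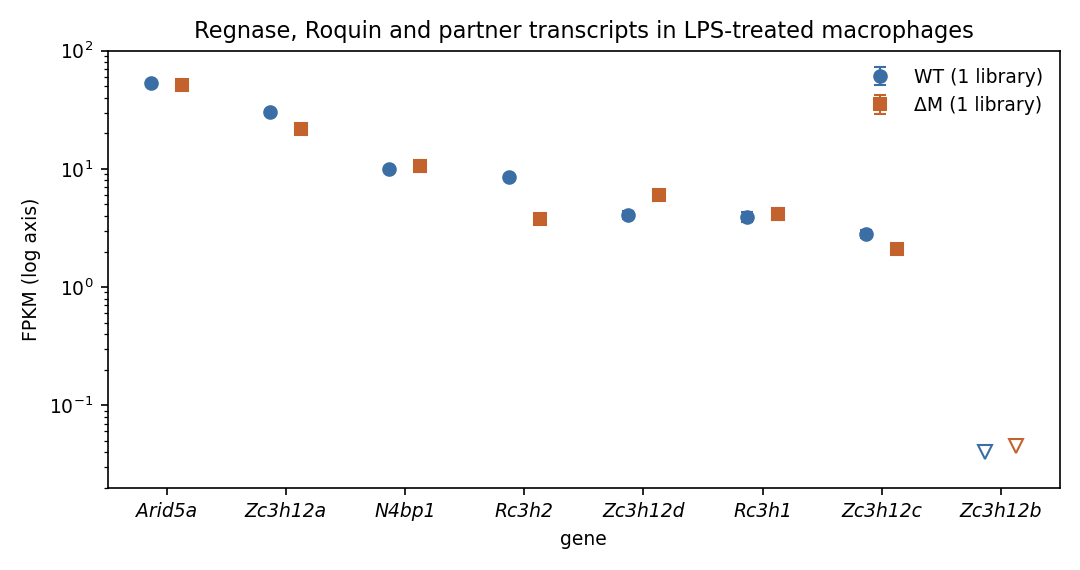
FPKM of the 8 members on a log axis, in order of the WT level, with WT as circles and ΔM as squares (1 library each). Bars are 95% Poisson counting intervals, mostly smaller than the symbols, and open triangles mark the level that a count of 0 allows for *Zc3h12b*. *Rc3h2* shows the widest gap, from 8.54 FPKM in WT to 3.76 FPKM in ΔM.

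In order of level in WT, the members ran *Arid5a*, *Zc3h12a*, *N4bp1*, *Rc3h2*, *Zc3h12d*, *Rc3h1*, *Zc3h12c* and *Zc3h12b*. Of the neighbors in this order, *Zc3h12d* and *Rc3h1* were within each other's counting intervals. In ΔM, *Zc3h12d* and *Rc3h1* stood above *Rc3h2*, and all other positions were as in WT. Among the 8078 protein-coding genes averaging 1 FPKM or more, *Arid5a* lay above 90.9% in WT and 90.8% in ΔM. *Zc3h12a* lay above 84.4% in WT and 79.8% in ΔM, and *N4bp1* above 62.2% and 64.2%. *Rc3h2* moved from 57.9% in WT to 35.6% in ΔM, and *Zc3h12d* from 38.2% to 48.7%.

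The protein-coding genes nearest to *Arid5a*, by Euclidean distance of the log2 values over the 2 libraries, were *Junb* (53.57 FPKM in WT against 52.34 in ΔM), *Dram2* (52.72 and 51.52 FPKM) and *Rhoc* (53.92 and 50.42 FPKM). Their distances were 0.018, 0.028 and 0.036. Those nearest to *Zc3h12a* were *Acot7* (30.63 and 21.99 FPKM), *Dennd5a* (29.75 and 22.78 FPKM) and *9530068E07Rik* (31.51 and 21.94 FPKM), at distances of 0.022, 0.057 and 0.061. With a pair of values per gene, such closeness is a match of levels and no more.

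Of the 7 members averaging 1 FPKM or more, 1 was at least 1.5-fold apart on the log2(FPKM + 1) scale, namely *Rc3h2*. The background was 10.2% of protein-coding genes (822 of 8078), with 5.36% lower and 4.82% higher in ΔM, and 18.7% of all 10765 genes that passed the same minimum. At 2-fold the background was 2.51% of protein-coding genes. *Rc3h2* reached 2-fold too, but narrowly, since its counting interval on this scale, -1.10 to -0.90, includes 2-fold. In order of the ratio, 106 protein-coding genes lay below it. The median log2 ratio of the 7 members was -0.05, against -0.0015 for the protein-coding genes and 0.03 for all genes that passed the minimum. As a group the members thus stood near the background.

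**Figure D3:**
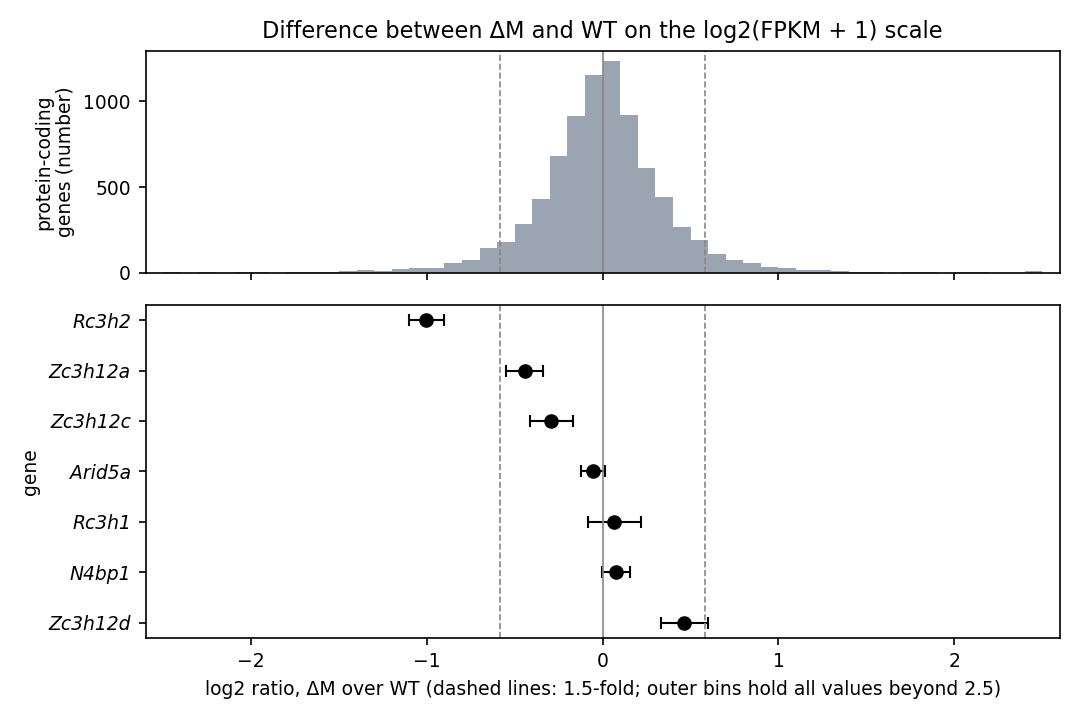
Log2 ratio of ΔM to WT after adding 1 FPKM, for protein-coding genes averaging 1 FPKM or more (upper panel, number of genes per bin) and for the 7 members that passed this minimum (lower panel, with 95% counting intervals). Dashed lines mark 1.5-fold, and *Rc3h2* at -1.003 is the member beyond them.

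Next, the transcripts on which these regulators act were examined. Of 22 known Regnase or Roquin substrates, 15 averaged 1 FPKM or more, of which 7 were at least 1.5-fold higher in ΔM, 2 were lower and 6 differed less. Over protein-coding genes the shares were 4.82% higher and 5.36% lower. The median log2 ratio over the 15 was 0.49. The list was set with earlier results of these data known, and several of its genes are also textbook targets of TTP, so it is not independent evidence of a direction. The cytokine *Tnf* was at 161.07 FPKM in WT against 306.17 in ΔM, a log2 ratio of 0.92.

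The neutrophil-attracting chemokines were higher in ΔM. *Cxcl2* was at 87.87 FPKM in WT against 439.95 in ΔM, *Cxcl1* at 11.99 and 62.63 FPKM, and *Cxcl3* at 5.39 and 13.22 FPKM. *Ccl2*, the monocyte chemokine, was at 162.85 FPKM in WT against 352.99 in ΔM. *Ptgs2*, which encodes cyclooxygenase-2, was at 112.35 and 207.84 FPKM, and *Ier3*, an immediate early gene bound by Roquin, at 27.54 and 53.29 FPKM. Of these, all were at least 1.5-fold higher in ΔM, with log2 ratios of 0.88 for *Ptgs2* to 2.31 for *Cxcl2*.

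The members of the list that were lower in ΔM were *Lcn2* and *Nfkbid*. *Lcn2*, which encodes the iron-sequestering protein lipocalin-2, was at 182.80 FPKM in WT against 91.87 in ΔM. *Nfkbid*, a nuclear IκB protein gene named after its values were seen, was at 9.36 FPKM in WT against 4.89 in ΔM. *Il1b*, the most abundant of the list, differed by less than 1.5-fold, at 874.57 FPKM in WT against 740.58 in ΔM.

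Of 4 transcripts known to be stabilized by ARID5A, 2 averaged 1 FPKM or more and 0 of these were 1.5-fold apart. *Il6* was at 34.86 FPKM in WT (32.9 to 36.9) and 49.28 FPKM in ΔM (46.8 to 51.9), a log2 ratio of 0.49. Its 3′ UTR of 420 nt held 1 heptamer and 0 stem-loops of the kind searched. Because *Il6* is also on the list of known Regnase or Roquin substrates, this 0 does not show that a site is absent. *Stat3* was at 376.34 FPKM in WT against 374.35 in ΔM. *Tnfrsf4*, which is a T cell costimulator gene, was at 0.14 FPKM in both libraries, and the T cell gene *Tbx21* was below the minimum as well.

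Of 10 genes that control the Regnase-1 protein, 9 passed the minimum of 1 FPKM, 1 was at least 1.5-fold lower in ΔM and 0 were higher. With 5.36% of protein-coding genes lower, 1 of 9 is near the background. The lower gene was *Malt1*, which encodes the protease that cleaves Regnase-1 and the Roquins, at 22.12 FPKM in WT (21.4 to 22.8) and 9.57 FPKM in ΔM (9.10 to 10.1), a log2 ratio of -1.13. *Ikbkb*, the gene of the kinase that marks Regnase-1 for degradation, was at 51.88 FPKM in WT against 36.66 in ΔM, a difference under 1.5-fold. *Tank*, whose product is a scaffold for removal of ubiquitin, was at 108.65 and 114.96 FPKM, and the kinase gene *Ikbke* at 83.61 and 78.27 FPKM. The median log2 ratio over the 9 was -0.10. *Usp10* was not analysed here.

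Of 13 partners of decay, namely *Upf1*, the subunits of CCR4-NOT and the decapping factors *Edc4* and *Ddx6*, 1 was at least 1.5-fold higher in ΔM, 1 was lower and 11 differed less. With 10.2% of protein-coding genes apart in either direction, 2 of 13 is near the background. The median log2 ratio was 0.03. *Cnot8*, the gene of a catalytic subunit of the deadenylase, was at 4.64 FPKM in WT (4.03 to 5.32) and 8.46 FPKM in ΔM (7.57 to 9.42). *Cnot6l*, which encodes another catalytic subunit, was at 15.59 FPKM in WT (14.5 to 16.8) and 8.68 FPKM in ΔM (7.80 to 9.64). Their respective paralogs *Cnot7* and *Cnot6* were within 1.5-fold, *Cnot7* at 24.09 and 19.60 FPKM and *Cnot6* (named after its values were seen) at 3.02 and 4.02 FPKM. *Cnot2*, a structural subunit and the most abundant of the list in WT, was at 34.82 FPKM in WT against 28.19 in ΔM.

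**Figure D4:**
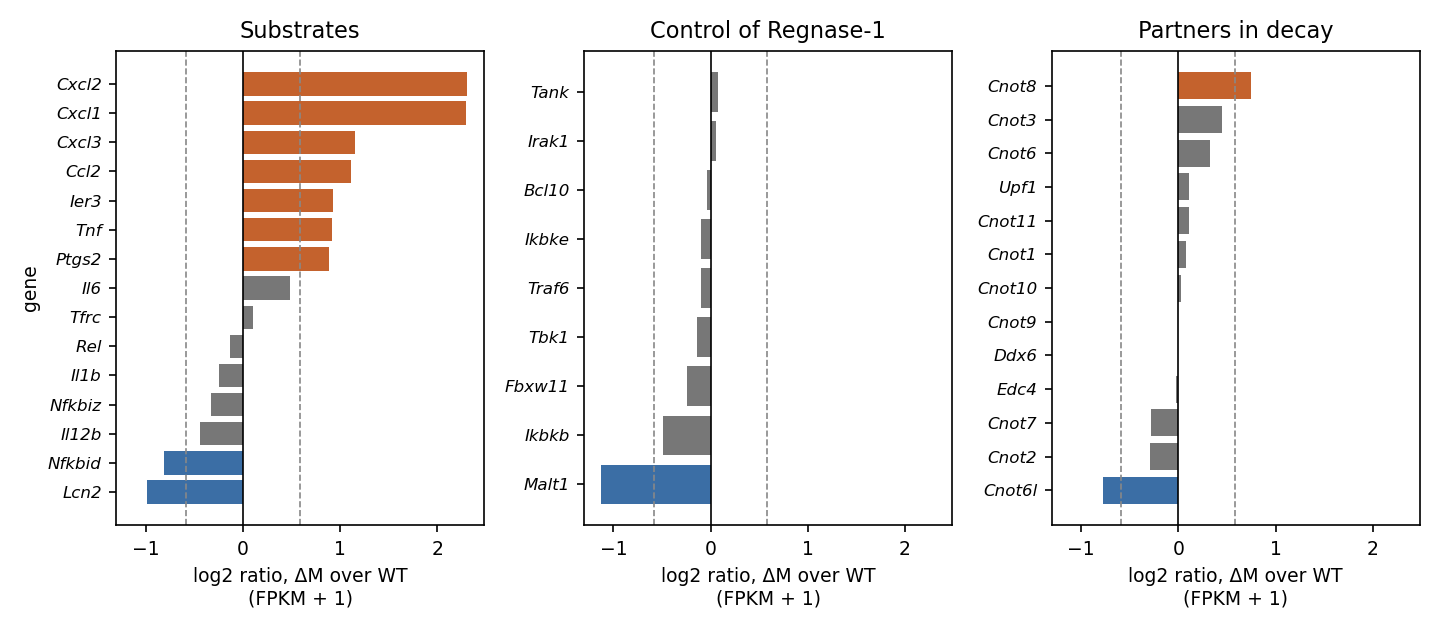
Log2 ratio of ΔM to WT after adding 1 FPKM for the genes averaging 1 FPKM or more among the known substrates, the genes that control Regnase-1 protein and the partners in decay (1 library per genotype, no error shown). Dashed lines mark 1.5-fold, and orange bars are higher and blue bars lower in ΔM beyond it. Of the 15 substrates, 7 were higher and 2 lower beyond it, against 4.82% and 5.36% of protein-coding genes. The substrate list was set with earlier results of these data known and holds textbook targets of TTP.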

How the data were processed

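RNA of 1 WT and 1 ΔM BMDM library was depleted of rRNA, fragmented and sequenced. The authors trimmed reads with Cutadapt, mapped them to mm9 with Segemehl and calculated the deposited FPKM values with Cufflinks on Ensembl exons. The table gives 1 value with 2 decimals per gene, and whether counting used the strand is not given in the sources used here. Of 37451 genes, 1 had no number in ΔM. FPKMs are not counts, and 1 library per genotype allows no test.

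Depth and mean fragment length (202 nt) were estimated as the values under which low FPKMs of genes with 1 transcript of 350 to 1500 nt are whole fragments. This held for 89.3% of 1482 values in WT and 90% of 1657 in ΔM, within the rounding of 0.005 FPKM, where rounding alone would give 13.8% and 13.3%. The estimate was tested on simulated data. Poisson intervals used the median transcript length. Log2 ratios had 1 FPKM added to both values and were limited to genes averaging 1 FPKM or more. Alternatives covered the added FPKM, the minimum, the fold, the centring and the transcript length.

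The members and lists were chosen with earlier results of these data known. Besides the members and *Zfp36*, the genes named were, per list, the 3 highest in WT and up to 8 that were at least 1.5-fold apart, and the 3 genes nearest to each of the 2 highest members. Symbols, positions and sequences came from GENCODE M1 and NCBIM37. Python 3.11.15, numpy 2.4.6, pandas 2.3.3, scipy 1.17.1 and matplotlib 3.10.9 were used.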

Additional observations from a re-analysis of the deposited data

How the results depend on the processing

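No paired analysis was possible because each genotype has 1 library, nor could a library be omitted. The count of members at least 1.5-fold apart was 1 under a 2-fold limit, without a minimum FPKM, with at least 1 FPKM in either library, with 0.1 FPKM added and with centred ratios. It was 0 with a minimum mean of 10 FPKM, which keeps 3 members and removes *Rc3h2*. The median log2 ratio of the members stayed within the counting interval of its middle gene under all 4 alternatives. The share of all genes at least 1.5-fold apart, 18.7%, was 10.2% over protein-coding genes, 9.31% at 2-fold, 20.2% with a minimum mean of 10 FPKM and 6.33% without a minimum, each of which counts other genes or uses another limit.

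No ratio of a member changed sign under the alternatives to the added FPKM and the centring. Adding 10 FPKM in place of 1 moved the log2 ratio of *Rc3h2* to -0.43, under 1.5-fold, and 0.1 FPKM moved it to -1.16. Of 35 recalculated ratios of members, 29 stayed within the counting interval. The depth limits statements on *Zc3h12b*. At the level of 1.5-fold it limits those on *Zc3h12d* and, for the ratio without added FPKM, on *Zc3h12c*. At 2-fold on the log2(FPKM + 1) scale it limits those on *Rc3h2*.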
